A study of Rattus norvegicus with 16 samples.

Results

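Messenger RNA of the gustatory cortex was compared between 4 male rats that had drunk saccharin and 4 that had drunk water, all 3 h after drinking. These 8 arrays, of 16 in the series, were chosen by the taste and time in their titles and by no measured value. The rats were Wistar Hola males, given as 2 months old in the labels, and all had been held on restricted water for 3 days before the test drink, including those of the water group. On the test day the saccharin rats drank 0.1% saccharin, a sweet taste they had not met before, and the water rats drank the familiar water. The other 8 arrays, 4 after saccharin and 4 after water at 1 h, entered the same fit and serve here for the estimate of spread and for the test of whether the 3 h difference differs from that at 1 h. Each array held the RNA of 1 rat, and the arrays are named by the numbers in their titles. Water arrays are C365, C367, C369 and C371 and saccharin arrays C366, C368, C370 and C372, and values are always given in this order.

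The gustatory cortex lies in the insular cortex and is needed for lasting memory of a taste. When cortical neurons fire strongly, calcium and cAMP signals act through CREB and serum response factor, and immediate early genes such as Arc, Egr2, Junb and Nr4a1 are transcribed within minutes and decay within hours. Arc protein acts at synapses, most of the others are transcription factors, and another set, among them Dusp6, encodes phosphatases that shut the MAP kinase pathway off again.

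The data gave 0 of 15209 probe sets with a Benjamini-Hochberg adjusted p under 0.05 in limma (0%). At an unadjusted p under 0.05 there were 513, of which 203 were higher after saccharin (1.33%) and 310 lower (2.04%). These shares are the background for the counts of list members at that threshold below. A probe set is the group of array probes that measures 1 transcript region, all values are log2 expression after robust multi-chip averaging (RMA), and every difference below is saccharin minus water at 3 h on that log2 scale unless 1 h is named. The median difference was -0.0034, with 5th and 95th percentiles of -0.12 and 0.11. For 14297 probe sets (94%) the 95% confidence interval lay wholly within a 1.25-fold change in both directions, and the interval of a typical probe set reached 0.14 to each side. Each single gene below is therefore given as a measured difference that did not pass the adjusted test. The study's methods used a looser cut-off, where the unadjusted p is 0.05 or less and the fold change 1.25 or more up or down. There 21 probe sets passed (0.138%), 8 higher and 13 lower after saccharin, and 10 of them had a mean level under log2 5.

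**Figure D1:**
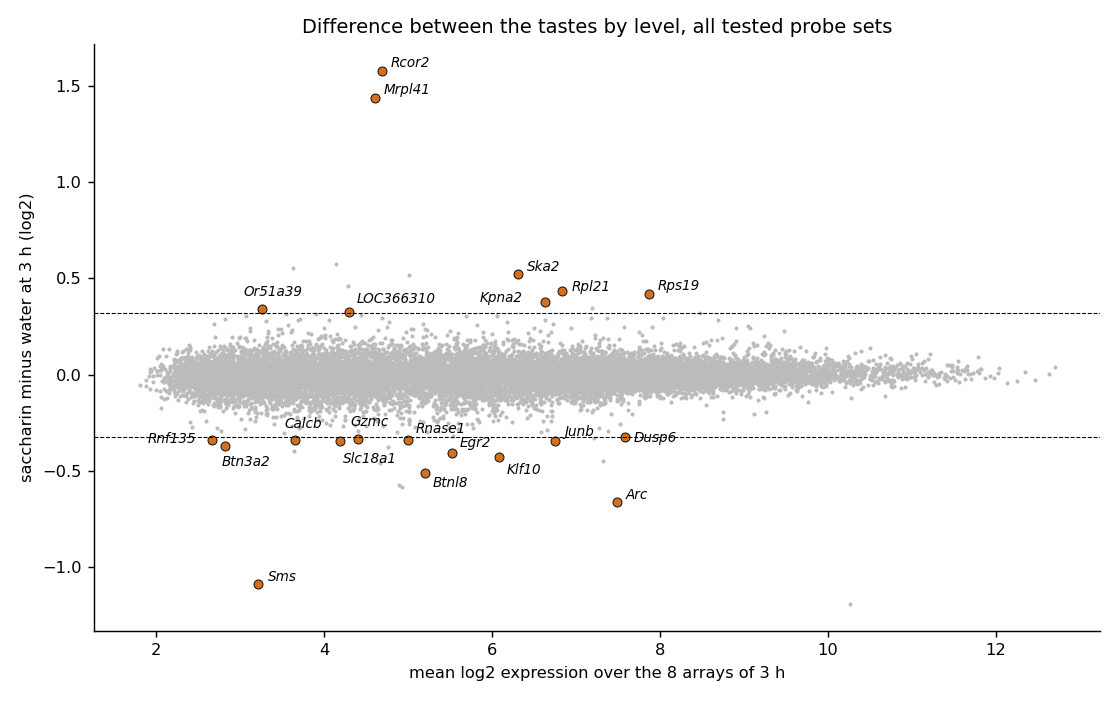
Difference between saccharin and water at 3 h (vertical axis, log2) against mean log2 expression (horizontal axis), 1 grey point per tested probe set. The 21 probe sets past the cut-off of the methods are orange, the dashed lines mark a 1.25-fold change, and the grey point at -1.19 is a probe set of Ldha that read 5.43 in saccharin array C368.

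Slc17a7, the vesicular glutamate transporter of cortical excitatory neurons, stood between 10.85 and 10.96 in the 8 arrays. Neurod6, a transcription factor of the same cells, stood between 8.53 and 8.85. Drd1, a dopamine receptor abundant in the neighbouring striatum, stood between 5.85 and 6.41. These genes do not tell the gustatory cortex from other cortex. Levels of different probe sets cannot be compared directly, so the values also do not measure how much striatum was included. Arrays of one taste correlated at 0.997 to 0.998, and so did arrays of different tastes. Component 1 of a principal component analysis held 22.6% of the variance, and the tastes did not differ past the threshold on components 1, 2 or 3 (exact permutation test over 70 labellings, two-sided, p = 0.8, 0.857 and 0.171, adjusted over the 3 components 0.857, 0.857 and 0.514, where the smallest p possible is 0.0286).

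Arc, whose protein promotes the removal of AMPA receptors from synapses, had the largest difference among the activity-induced genes. It read 8.67, 7.26, 7.45 and 7.89 after water and 6.88, 7.19, 7.26 and 7.27 after saccharin. Water array C365 was far above the rest, C371 was next, C369 lay just above the saccharin range and C367 within it. The group levels were 7.82 ± 0.63 and 7.15 ± 0.19 (SD, n = 4 each). The difference was -0.66 (standard error 0.21, 95% interval -1.11 to -0.22, adjusted p = 0.999 in limma), or 0.631 of the water level on the linear scale, and -0.38 without array C365. Standard errors and intervals rest on a single spread per gene, shared by all groups of both times. For Arc the SD at 1 h was only 0.24 after water and 0.19 after saccharin. The interval therefore understates the spread of the water arrays at 3 h. Nr4a1, Egr2, Junb and Dusp6 also varied most after water at 3 h.

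Nr4a1, an orphan nuclear receptor, read 8.34, 6.94, 6.97 and 7.92 after water and 6.70, 7.25, 7.26 and 7.16 after saccharin. As for Arc, C365 and C371 were the highest arrays, while the other water arrays fell inside the saccharin range. Its difference of -0.45 (standard error 0.23, 95% interval -0.93 to 0.029) was -0.18 without C365. Egr2, a zinc finger transcription factor, read 6.46, 5.46, 5.51 and 5.48 after water and 5.36, 5.25, 5.04 and 5.65 after saccharin. Array C365 alone stood about 1 above the other water arrays, and the difference of -0.41 (standard error 0.18) was -0.16 without it. Junb, an AP-1 subunit, read 7.34, 6.70, 6.59 and 7.05 after water and 6.33, 6.49, 6.72 and 6.77 after saccharin, again with C365 and C371 on top, and its difference of -0.35 (standard error 0.14) was -0.20 without C365. Fos, the AP-1 subunit most used to mark active neurons, is named here with its values already known. It read 6.29, 5.30, 5.40 and 5.88 after water and 5.25, 5.52, 5.50 and 5.59 after saccharin, a difference of -0.25. Its groups overlapped, with C365 and C371 again on top and the other water arrays within the saccharin range.

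Klf10 differed from these genes in that its water arrays were all above its saccharin arrays, though narrowly. The lowest water array, C369, read 5.99 and the highest saccharin array, C366, 5.96, and C365 and C371 were again on top. This Kruppel-like transcription factor read 6.54, 6.14, 5.99 and 6.52 after water and 5.96, 5.88, 5.74 and 5.90 after saccharin. The difference was -0.43 (standard error 0.11, 95% interval -0.66 to -0.20, adjusted p = 0.999 in limma) and stayed between -0.53 and -0.35 with any single array left out. Csrnp1, a nuclear protein of the immediate early class, read 4.99, 4.82, 5.12 and 4.97 after water and 4.73, 4.71, 4.79 and 4.83 after saccharin, with only the lowest water array inside the saccharin range (difference -0.21, standard error 0.065). Over all probe sets, complete separation of the 2 tastes was seen for 291 (1.91%), 126 of them higher after saccharin and 165 lower. Klf10 was the 1 immediate early transcription factor among them.

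**Figure D2:**
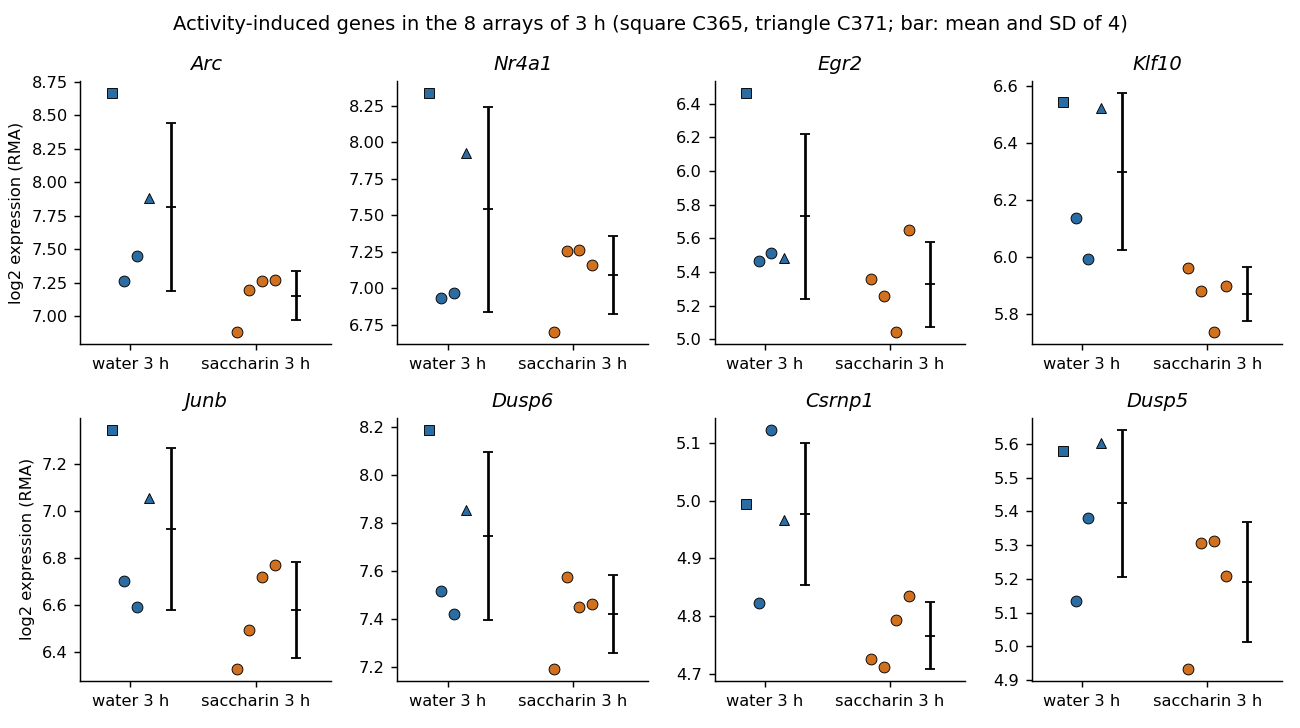
Log2 expression (RMA, vertical axes) of 8 activity-induced genes in the 4 water and 4 saccharin arrays of 3 h, 1 point per rat, group means and SDs drawn beside the points. Water array C365 (square) is the highest array for Arc, Nr4a1, Egr2, Klf10, Junb and Dusp6, and the groups of Klf10 do not overlap.

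The list of immediate early transcription factors had 29 measured members. Their median difference was -0.094 and 6 of 29 were above 0, where 7252 of the 15209 probe sets were (47.7%). At an unadjusted p under 0.05, where 2.04% of all probe sets were lower and 1.33% higher, 4 members were lower (Klf10, Csrnp1, Junb and Egr2) and 1 was higher, the growth regulator Myc at a dim level of 3.09 ± 0.084 against 2.97 ± 0.043. The mean level of the list was 6.46, 6.10, 6.20 and 6.31 in the water arrays and 6.07, 6.15, 6.16 and 6.21 in the saccharin arrays, and 16 of the 29 members were highest in C365. Leaving that array out moved the median to -0.056 with 8 of 29 above 0. Over the 8 arrays left out in turn the median lay between -0.13 and -0.052. The count of lower members ran from 2 without C365, C366 or C368 to 8 without C369 and was 7 without C367, and the count of higher ones fell to 0 without C368, C369, C370 or C371.

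The spread between rats was also described for these genes, with no test of it. The standard deviation was larger after water than after saccharin for 22 of the 29 transcription factors, where this held for 6754 of 15209 probe sets (44.4%). Without C365 it held for 16 of 29 and for 41.5% of all probe sets. Among 23 activity-induced synaptic and signalling effectors it held for 14, and for 15 without C365. Among 19 MAP kinase phosphatases and Sprouty proteins it held for 14, and for 12 without C365. For Arc the standard deviation over the 4 rats was 0.63 after water and 0.19 after saccharin, and for Nr4a1 0.70 and 0.27. The water values include C365, the highest array for both genes.

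Among 23 activity-induced synaptic and signalling effectors, the median difference was -0.048 with 6 above 0. Arc was the 1 member at an unadjusted p under 0.05, where 2.04% of all probe sets were lower. Sgk1, a kinase induced by corticosteroids and by activity, had a value on the other side, at 8.13, 8.25, 8.20 and 8.16 after water and 8.30, 8.28, 8.35 and 8.19 after saccharin (difference 0.096, standard error 0.046). The 12 activity-regulated secreted factors had a median of -0.05 and 0 members at an unadjusted p under 0.05 in limma.

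Dusp6, a cytoplasmic phosphatase of ERK, read 8.19, 7.52, 7.42 and 7.85 after water and 7.19, 7.58, 7.45 and 7.46 after saccharin, and Dusp5, a nuclear phosphatase of ERK, 5.58, 5.13, 5.38 and 5.60 against 4.93, 5.31, 5.31 and 5.21. The tastes overlapped in both genes, with differences of -0.32 (standard error 0.12) and -0.23 (standard error 0.093). These were the 2 members at an unadjusted p under 0.05 among 19 MAP kinase phosphatases and Sprouty proteins, whose median was 0.006 with 10 above 0. Without C365 their differences were -0.18 and -0.18, 0 members were lower at that threshold and the median was -0.012. Without C369 the lower count was 5, without C367, C368 or C370 it was 3, and the median ran from -0.062 to 0.017. Map2k3, a kinase that activates p38, read 5.57, 5.37, 5.52 and 5.52 after water and 5.26, 5.19, 5.36 and 5.27 after saccharin without overlap (difference -0.22, standard error 0.089). It was the 1 of 24 cascade kinases at an unadjusted p under 0.05, where 2.04% of all probe sets were lower. This count fell to 0 without C365 or C368. In the same list 1 other kinase also separated the tastes, with its saccharin arrays higher.

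Promoters are shown for 4 members of the activity lists, because genes of this class have a well known input through cAMP response and serum response elements. Arc and Klf10 have no entry in the table used. The 250 bases before each annotated start, from RefSeq on assembly GRCr8, are printed 5′ to 3′ on the gene's strand. Capitals mark the core TGACG of the cAMP response element on either strand (CGTCA on the opposite one) and the CArG box of serum response factor.
Junb, chr19:40080876-40081125, plus strand: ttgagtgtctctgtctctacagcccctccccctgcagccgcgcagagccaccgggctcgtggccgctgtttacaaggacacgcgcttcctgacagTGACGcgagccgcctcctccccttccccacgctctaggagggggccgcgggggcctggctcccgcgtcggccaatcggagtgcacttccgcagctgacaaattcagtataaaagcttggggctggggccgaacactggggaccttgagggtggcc
Egr2, chr20:21054442-21054691, minus strand: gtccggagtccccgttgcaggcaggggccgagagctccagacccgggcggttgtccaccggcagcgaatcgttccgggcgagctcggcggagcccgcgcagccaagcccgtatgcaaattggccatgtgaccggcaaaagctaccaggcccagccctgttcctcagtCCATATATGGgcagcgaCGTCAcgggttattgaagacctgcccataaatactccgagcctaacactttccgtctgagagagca
Nr4a1, chr7:134259888-134260137, plus strand: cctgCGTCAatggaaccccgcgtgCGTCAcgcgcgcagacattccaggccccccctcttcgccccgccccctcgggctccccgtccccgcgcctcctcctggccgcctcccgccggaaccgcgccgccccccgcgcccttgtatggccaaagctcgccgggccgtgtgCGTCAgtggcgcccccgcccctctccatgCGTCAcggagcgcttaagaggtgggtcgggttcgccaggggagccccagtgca
Sgk1, chr1:24807232-24807481, minus strand: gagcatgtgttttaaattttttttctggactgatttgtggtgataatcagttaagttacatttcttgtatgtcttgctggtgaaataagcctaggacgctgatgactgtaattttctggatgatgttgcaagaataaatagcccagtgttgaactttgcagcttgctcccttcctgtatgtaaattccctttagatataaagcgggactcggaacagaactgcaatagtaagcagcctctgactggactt
Nr4a1 carried 4 cores and 3 SP1 motifs (GGGCGG), Egr2 carried 1 core, 1 CArG box and 1 SP1 motif, Junb carried 1 core, and Sgk1 had none of these letters in its window. Of 38 activity promoters with a sequence, 24 held the core (63.2%) and 3 a CArG box (7.89%), where 23.3% and 1.18% of 11965 promoters of tested genes did. The full element, TGACG followed by TCA, stood in 10.5% and 2.28%, SP1 motifs in 57.9% and 47.3%, and the AP-1 motif TGANTCA in 0 of 38 and 5.49%. Both strands were searched, and a full element is also counted as a core. These are letter matches and not measured binding.

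Prdx6 had the smallest p on the higher side among the bright probe sets, those with a mean of at least log2 7. It encodes a peroxiredoxin that reduces lipid peroxides and read 8.80, 8.98, 8.90 and 9.01 after water and 9.16, 9.14, 9.24 and 9.15 after saccharin. No array of one taste overlapped the other, and the difference was 0.25 (standard error 0.059, 95% interval 0.13 to 0.37, adjusted p = 0.999 in limma). Selenow, a small selenoprotein, read 8.45, 8.40, 8.48 and 8.40 against 8.49, 8.64, 8.64 and 8.62 (difference 0.16, standard error 0.048). It also did not overlap, though saccharin array C366 lay only just above the highest water array. Prdx1, another peroxiredoxin, stood at 10.05 ± 0.066 against 9.91 ± 0.068 (SD, n = 4 each) with overlap (difference 0.14, standard error 0.058). These 3 were the members at an unadjusted p under 0.05 among 31 selenoproteins and peroxiredoxins, where 1.33% of all probe sets were higher. The list's median was 0.0068 with 18 above 0. It ran from -0.014 to 0.026 with 1 array left out, turning below 0 without C368 or C370.

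Atp1b2, a sodium pump beta subunit enriched in glia, read 9.03, 9.14, 9.05 and 9.10 after water and 9.20, 9.23, 9.24 and 9.26 after saccharin, so that the groups did not overlap (difference 0.15, standard error 0.048). Atp1b3, another beta subunit, read 7.64, 7.69, 7.78 and 7.88 against 7.97, 7.92, 7.98 and 7.82, where the highest water array lay above the lowest saccharin array (difference 0.17, standard error 0.053). Cldn10, a claudin of cell junctions, Scrg1, a gene of glia, the splicing regulator Nsrp1, Tmem127 and the adhesion molecule Nectin3 differed by 0.14, 0.15, 0.15, 0.15 and 0.19.

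On the lower side the bright set held, beside Arc and Dusp6, Wipi1, which binds forming autophagosomes, at 7.22, 7.23, 7.18 and 7.22 after water and 7.12, 7.05, 6.99 and 7.16 after saccharin. Smarcc1, a core subunit of the SWI/SNF chromatin remodeller, read 7.90, 7.86, 7.87 and 7.95 against 7.77, 7.76, 7.79 and 7.80, and Naa25, of an N-terminal acetyltransferase, 7.14, 7.14, 7.15 and 7.15 against 7.04, 7.08, 7.07 and 6.90. None of these 3 overlapped between the tastes, at differences of -0.14, -0.11 and -0.12, nor did Stk40 at -0.14. Over all probe sets 1.91% did not overlap, and the genes here were picked for their small p. The others, with overlap, were the sorting nexin Snx30 at -0.13, the ribosome assembly factor Tsr1 at -0.15, Abt1 at -0.14 and Hcfc2 at -0.15.

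**Figure D3:**
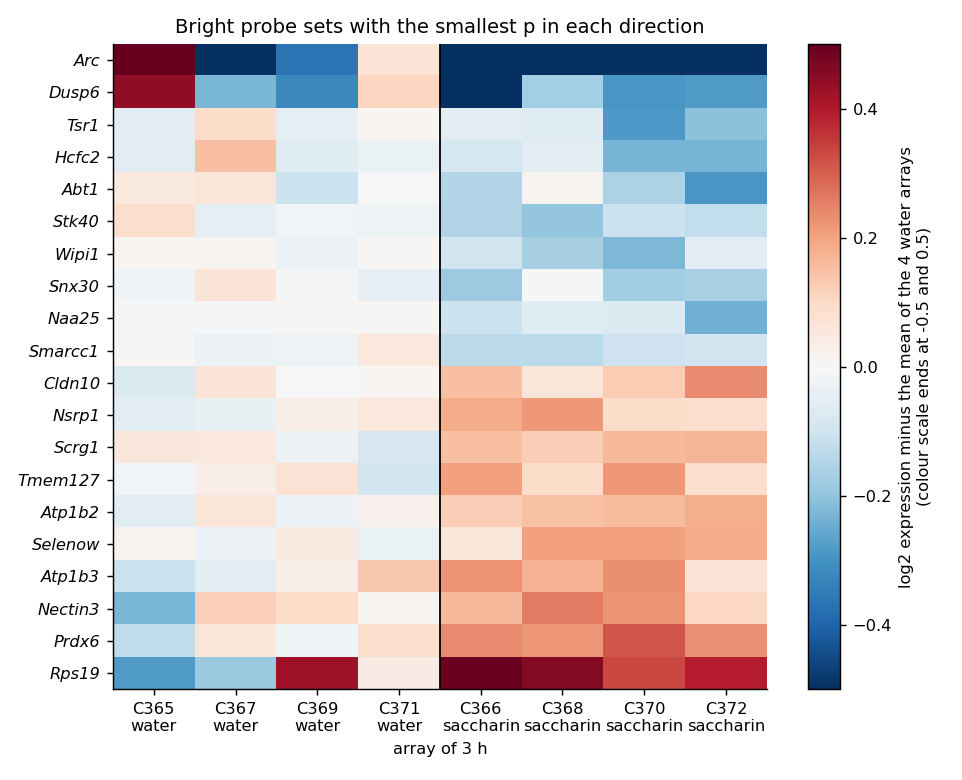
Log2 expression minus the mean of the 4 water arrays (colour, scale ending at -0.5 and 0.5) for the 20 bright probe sets with the smallest p, 10 per direction, in the 4 water and 4 saccharin arrays of 3 h. Arc, Dusp6 and Rps19 have the strongest colours among the water arrays themselves.

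Calcb had the smallest p of the whole table. It encodes the beta form of calcitonin gene-related peptide and read 3.79, 3.93, 3.77 and 3.82 after water and 3.49, 3.55, 3.47 and 3.43 after saccharin. The gap between the tastes was wider than the range within either, at a dim level (difference -0.34, standard error 0.053, adjusted p = 0.0756 in limma). Over the alternatives the adjusted p ran from 0.0213, without saccharin 1 h array C379, to 0.486. Of 11 genes of this peptide family and its receptors, 10 had a difference below 0, with a median of -0.036. At 1 h the median of these 11 was also below 0, at -0.048, with 4 above 0. Next in size were Iapp, the amylin gene, at -0.14, Calca, the alpha form, at -0.095 and the calcitonin receptor gene Calcr at -0.093, each with an unadjusted p over 0.05. Without Calcb, an alternative added after seeing the data, the mean of the other 10 genes was taken. It lay above its 8-array mean in each water array, by 0.0091 to 0.04, and below it in each saccharin array, at -0.049 to -0.0094. The median difference of these 10 genes was -0.034. This split of the arrays was not tested, nor was it counted for the other lists. The 11 genes have a median level of log2 4.83. Of all probe sets with a mean from log2 3 to 5, 45.7% were above 0.

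Of 20 cortical neuropeptide genes, 2 were lower at an unadjusted p under 0.05, Nmb, encoding neuromedin B, at 3.98 ± 0.12 after saccharin and 4.21 ± 0.12 after water, and Nts, encoding neurotensin, at 2.60 ± 0.076 and 2.76 ± 0.11 (SD, n = 4 each). Both are dim, Nts at about the median level of the olfactory receptor genes (2.75), and the count of lower members was 0 without water array C371 and 1 without saccharin array C368. Hcrtr1, an orexin receptor gene, read 5.52, 5.10, 5.11 and 5.33 after water and 5.10, 4.97, 4.87 and 5.14 after saccharin (difference -0.24, standard error 0.096), and 7 of 8 opioid, cannabinoid and orexin receptor genes were below 0. Hcrtr1 was the 1 of these at an unadjusted p under 0.05, where 2.04% of all probe sets were lower. Without C365, C370 or C371 there was 0. All 5 muscarinic acetylcholine receptor genes were below 0, from -0.12 for Chrm5 to -0.0088 for Chrm1, with 0 at an unadjusted p under 0.05 in limma, and Chrm1 turned above 0 without C368. Adra1d, an alpha-1 adrenergic receptor gene, read 6.36, 6.47, 6.41 and 6.46 after water and 6.50, 6.64, 6.63 and 6.50 after saccharin without overlap (difference 0.14, standard error 0.047). Pde4c, a phosphodiesterase that degrades cAMP, stood at 5.22 ± 0.13 against 5.47 ± 0.089 (difference -0.25). The lists of 83 potassium channel genes and 35 sodium and calcium channel genes had 0 members at an unadjusted p under 0.05 in limma, as had those of AMPA and kainate, NMDA, metabotropic glutamate and GABA-A receptors.

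The differences over log2 1 among the 21 came from probe sets that the other probe sets of the same gene did not share. Rcor2, which encodes a CoREST corepressor, read 4.61, 3.81, 3.52 and 3.66 after water and 5.58, 5.24, 5.75 and 5.34 after saccharin on 1 of its probe sets (difference 1.58, standard error 0.27, adjusted p = 0.131 in limma), while the brighter one differed by 0.045. Over the alternatives its adjusted p ran from 0.0213 to 0.999, and it was 0.0344 without C365. Mrpl41, a mitochondrial ribosomal protein gene, read 4.15, 2.38, 3.88 and 5.12 against 4.83, 5.96, 5.42 and 5.07 (difference 1.44, standard error 0.59), where its brighter probe set differed by 0.035. Sms, encoding spermine synthase, read 5.11, 3.18, 2.80 and 3.97 against 2.65, 2.50, 2.25 and 3.30 (difference -1.09, standard error 0.40), and its brightest probe set differed by 0.0032. Both of the last overlapped between the tastes, and Sms was -0.64 without C365.

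In all, 11 of the 21 probe sets past the cut-off (52.4%) belonged to genes with a further probe set, where 494 of 14497 tested genes had more than 1 (3.41%) and 7.93% of tested probe sets were of such genes. Of their 33 other probe sets, 0 passed the cut-off and 0 had an unadjusted p under 0.05 in limma, and for 8 of the 11 the probe set past the cut-off was not the brightest. Ska2, a kinetochore gene, differed by 0.52 and 0.084, and Kpna2, an importin, by 0.38 and 0.016. Rps19 differed by 0.42 on its brightest probe set and by -0.11 to 0.10 on 3 others, and Rpl21 by 0.43 on 1 and by -0.33 to 0.26 on 18 others. Ribosomal protein genes have many near-identical copies, so it is uncertain which copy such a probe set measures. The butyrophilin genes Btnl8 and Btn3a2, Rnf135 and LOC366310 differed by -0.51, -0.37, -0.34 and 0.33. Over the 494 genes, the brightest 2 probe sets had differences of one sign for 299 (60.5%).

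**Figure D4:**
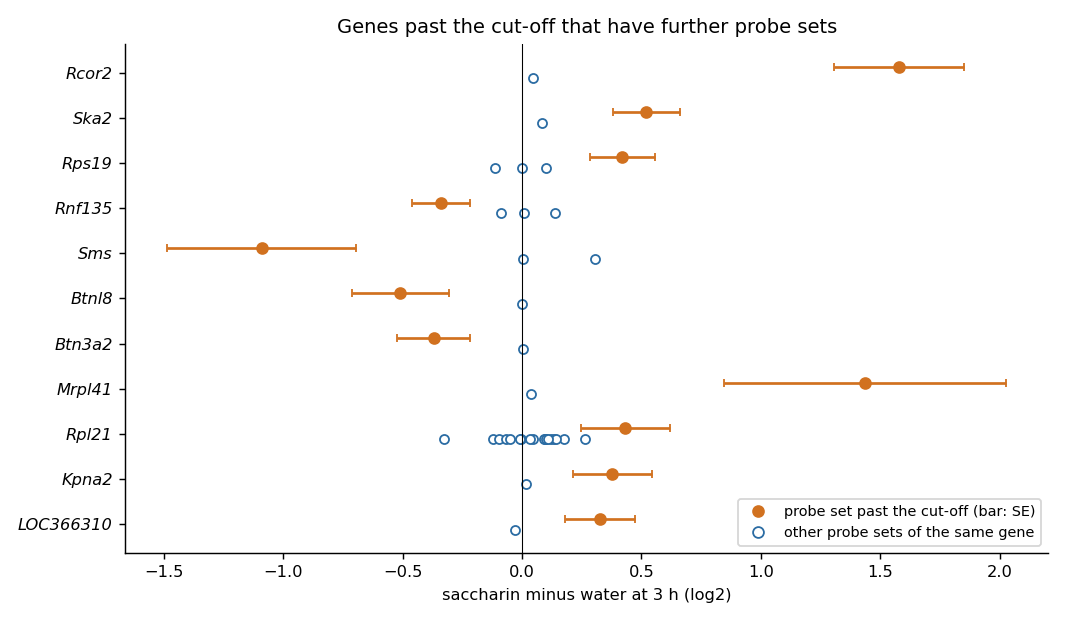
Difference between saccharin and water at 3 h (horizontal axis, log2) for the 11 genes past the cut-off of the methods that have further probe sets, with the probe set past the cut-off in orange (bar, standard error) and the others as open blue circles. None of the 33 open circles passes the cut-off.

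The 10 genes past the cut-off with 1 probe set were Arc, Klf10, Egr2, Junb, Dusp6 and Calcb, and Rnase1, Gzmc, Slc18a1 and Or51a39. Rnase1, a secreted ribonuclease, read 5.02, 5.27, 5.45 and 4.96 after water and 5.04, 4.82, 4.53 and 4.95 after saccharin (difference -0.34, standard error 0.10). Gzmc, a granzyme gene, and Slc18a1, a vesicular monoamine transporter gene, differed by -0.33 and -0.35, and the tastes overlapped in all 3. Or51a39, an olfactory receptor gene, differed by 0.34 at 3.43 ± 0.14 against 3.09 ± 0.11 (SD, n = 4 each). Among 1101 olfactory receptor genes, with a median level of 2.75, 12 were on the higher and 40 on the lower side at an unadjusted p under 0.05, where 4.26% of all probe sets with a mean under log2 3 passed in either direction. The balance turned on single saccharin arrays, with 27 higher and 27 lower without C368 and 8 and 63 without C370.

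The remaining genes among the 15 smallest p in each direction were mostly dim. Below water were C14h7orf57 at -0.27, the olfactory receptor genes Or13c7 at -0.27 and Or8s5 at -0.24, Tmem26 at -0.29, the flagellar gene Tekt5 at -0.24, the complement gene C3 at -0.27, Ctag2 at -0.24, Rps4y2 at -0.32 and the lectin gene Clec12b at -0.17. Pop1, a subunit of RNase P, was at -0.25, the actin-severing Scin at -0.27, the asialoglycoprotein receptor gene Asgr1 at -0.19 and the kallikrein gene Klk1c10 at -0.26. Above water were Ift70a2 at 0.31, Or52b4 at 0.20, Or8b12d at 0.28, Pinlyp at 0.18, the meiotic gene Hormad1 at 0.26, Dram2 at 0.21, the zinc finger gene Zfp467 at 0.23 and Mogat2 at 0.26. For each of these 21 genes the adjusted p was 0.999 in limma.

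Genes of protein synthesis and respiration had differences mostly above 0. Of 68 cytosolic ribosomal protein genes, 59 were above 0 with a median of 0.04, and of 75 mitochondrial respiratory chain genes 59 were with a median of 0.033, where 57.2% of all 1286 probe sets with a mean of log2 9 or more were. Rps19 and Rps24 were higher and Rps27 lower at an unadjusted p under 0.05, and Ndufb2 and Uqcrfs1, subunits of complexes I and III, were higher. Of all probe sets 1.33% were higher and 2.04% lower at that threshold. The 3 other probe sets of Rps19 differed by only -0.11 to 0.10. The mean level of the ribosomal list overlapped between the tastes, at 9.48, 9.40, 9.54 and 9.55 after water and 9.49, 9.52, 9.53 and 9.63 after saccharin, with 35 members lowest in water array C367 and 36 highest in saccharin array C372. Leaving out C367 or C372 reduced the count above 0 to 41 or 42 and the median to 0.01 or 0.011. In the respiratory list 37 members were highest in saccharin array C368, and without it the count was 47 and the median 0.017. At 1 h the ribosomal list had 20 of 68 above 0.

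**Figure D5:**
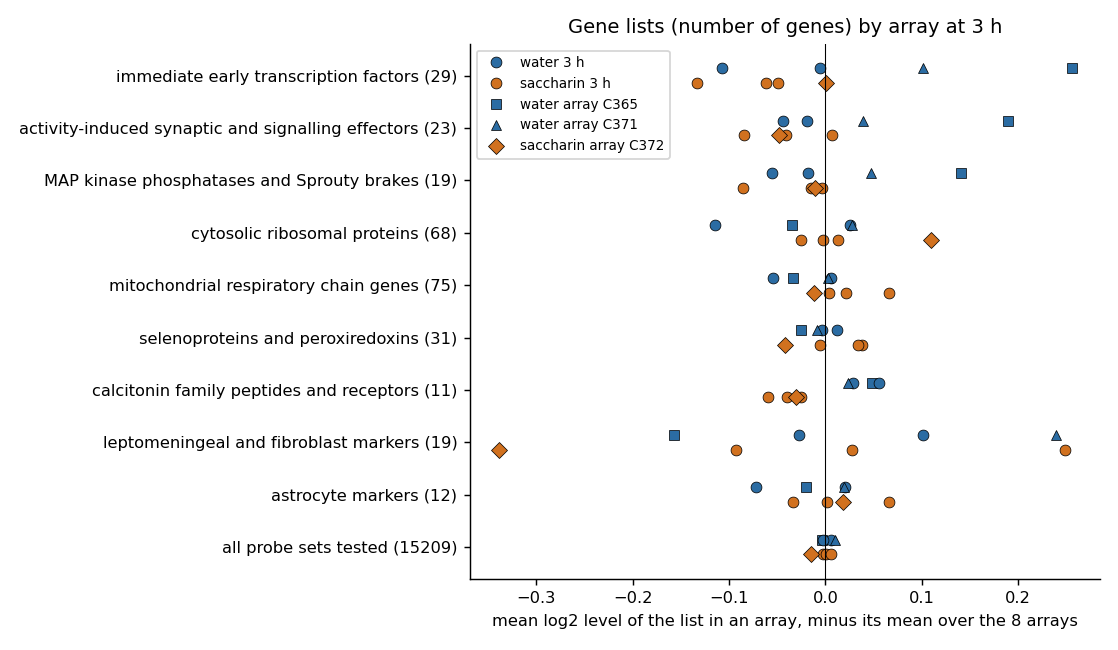
Mean log2 level of gene lists in each of the 8 arrays of 3 h, minus its mean over the 8 (horizontal axis), with water in blue and saccharin in orange. Water array C365 is at 0.26 for the immediate early transcription factors, and saccharin array C372 at -0.34 for the leptomeningeal markers.

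Markers of the leptomeninges, the membranes on the cortical surface, and of fibroblasts varied between rats. Their 19 genes had mean levels of 6.02, 6.28, 6.15 and 6.41 after water and 6.08, 6.42, 6.20 and 5.84 after saccharin, with 14 of 19 lowest in C372. The median difference of -0.053 became 0.016 without C372, 0.024 without C371 and -0.17 without C368. In bulk tissue fewer cells of a type and less RNA per cell cannot be told apart. Astrocyte markers had a median of 0.031 with 10 of 12 above 0, and their mean level ran from 9.30 to 9.40 after water and from 9.34 to 9.44 after saccharin. Their part in the values of the glial genes Atp1b2 and Scrg1 was not tested. Medians, with their range over the 8 arrays left out in turn in brackets, were 0.026 (-0.022 to 0.084) for oligodendrocyte and myelin markers, -0.0051 (-0.02 to 0.024) for microglia, 0.015 (-0.0042 to 0.063) for endothelial cells and pericytes and -0.061 (-0.093 to -0.0075) for cortical excitatory neurons. They were 0.023 (0.013 to 0.058) for inhibitory neurons, -0.0077 (-0.033 to 0.0051) for striatal neurons, -0.014 (-0.041 to -0.00065) for choroid plexus and -0.069 (-0.15 to -0.026) for blood genes. The oligodendrocyte median turned below 0 without C372 and the endothelial one without C369 or C370, the excitatory neuron median was nearest 0 without C370, and those of microglia and striatal neurons took either sign. In these cell lists Rgs5, a pericyte gene, was the 1 member at an unadjusted p under 0.05 (difference 0.18, standard error 0.069). Of all probe sets 1.33% were higher at that threshold. Without C365, C369, C370 or C372 there was 0 in its list.

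The 19 glucocorticoid receptor and target genes had a median of -0.055 with 4 above 0, the 16 osmotic response genes 0.025 with 10, the 15 circadian clock genes -0.0057 with 7 and the 18 heat shock genes -0.023 with 4. The osmotic median turned to -0.012 with 7 above 0 without C365, and the circadian one took either sign, from -0.028 to 0.014. Of these, Dnajb5, a heat shock cochaperone, was the 1 member at an unadjusted p under 0.05 (difference -0.16, standard error 0.07), where 2.04% of all probe sets were lower. Its difference without C365 was -0.083, which no longer met that threshold. Without C372 its list also had 0 such members. Klf15, another Kruppel-like factor, had a value above water (difference 0.19, standard error 0.08). The reference genes Gapdh and Actb differed by 0.041 and -0.05, and Gapdh turned below 0 without C366 and with quantile normalization repeated.

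Set against 1 h, in other rats, the 3 h differences were not distinct after adjustment. The interaction, the 3 h difference minus the 1 h difference, had 0 of 15209 probe sets at an adjusted p under 0.05 and 450 at an unadjusted p under 0.05 (2.96%) in limma. At 1 h the tastes differed by 0.024 for Arc, 0.047 for Nr4a1 and 0.022 for Klf10, with interactions of -0.69, -0.50 and -0.45. Prdx6 and Selenow differed by -0.034 and -0.094 at 1 h, with interactions of 0.28 and 0.26. Other genes were lower after saccharin at both times. Calcb, C14h7orf57 and Csrnp1 differed by -0.11, -0.20 and -0.15 at 1 h, with interactions of -0.23, -0.069 and -0.062. Of the 21 probe sets past the cut-off of the methods at 3 h, 10 had the same sign at 1 h. The 6 smallest p of the interaction belonged to Rcor2 at 1.64, Asgr1 at -0.31, Agmat, encoding agmatinase, at 0.40, LOC681325 at 0.36, the ephrin receptor gene Ephb3 at -0.39 and Or8s5 at -0.36.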

How the data were processed

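The authors processed the raw array files (Affymetrix RaGene 1.1 ST v1) in the affy package, with quantile normalization across the 16 arrays, and deposited log2 values from RMA, 1 per probe set. The values were used as deposited. Of 28826 probe sets, the 15209 with exactly 1 gene in the platform annotation entered the tests, while 306 have several genes there and 13311 are unnamed here. Group means of all 16 arrays were fitted in limma 3.58.1 (R 4.3.3), two-sided, with Benjamini-Hochberg adjustment over the 15209. The fit was tested on simulated data. The number of arrays limits the precision. The 50 gene lists use the brightest probe set of each gene and carry no test. Members and lists were chosen with earlier results of these data known. Genes named are all probe sets past the cut-off, the 15 smallest p in each direction, the 10 smallest with a mean of at least log2 7, up to 5 members of each list, the 6 smallest interaction p, Arc, Dusp6, Nr4a1, Gapdh and Actb, and other probe sets of those genes. Promoters are from RefSeq (GRCr8), and symbols of 15178 probe sets were updated through the gene ID. Alternatives covered probe sets tested, filters on level, centring, quantile normalization, priors, array weights and leaving out each array.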

Additional observations from a re-analysis of the deposited data

Results flagged for a closer look

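Among the 93 probe sets whose own values are given above, 11 of 186 groups of 4 arrays had 1 array far from the other 3, by a gap that took up more of the group's range than Dixon's 95% critical value allows, where chance gives about 1 in 20. Array C365 of the water group held 3 of them, Egr2 at 6.464, Dnajb5 at 8.842 and Calca at 3.665. The other water arrays held Dram2 in C371 at 6.013, Wipi1 in C369 at 7.185 and Hcfc2 in C367 at 7.271. In the saccharin group they were Prdx6 and Drd1 in C370 at 9.24 and 5.848, Snx30 and Ldha in C368 at 7.467 and 5.428, and Selenow in C366 at 8.493. Further probe sets given only as another reading of a gene were not checked.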

How the results depend on the processing

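The count of 0 probe sets at an adjusted p under 0.05 in limma at 3 h held under all 10 alternatives other than leaving out an array, and lay between 0 and 2 with any 1 of the 16 arrays left out (1, Rcor2, without water 3 h array C365, and 2, Rcor2 and Calcb, without saccharin 1 h array C379). The count of 0 for the interaction held under every alternative run for it. The count of 21 at the cut-off of the methods came to 124 with all probe sets in the table, 13 with 1 probe set per gene, 11 and 4 with a mean of at least log2 5 and log2 7, and 12 by least squares with no moderation. It lay between 20 and 37 with 1 array left out, the highest being 37 without water array C369 and 35 without saccharin array C368, and the cause was not tested. Of 2312 refits of the 93 probe sets whose own values the text gives, 3 passed the adjusted threshold, all of Rcor2 or Calcb, and 4 turned in sign, none of them called. These were Chrm1 without C368 (range with 1 array left out, -0.040 to 0.012), Gapdh without C366 (-0.0027 to 0.079) and with quantile normalization repeated (-0.018), and Ldha without C368 (-1.71 to 0.22). Further probe sets given only as another reading of a gene were not refitted one by one. Of 646 refits of the 50 list medians, 619 moved by less than the spread between arrays. Leaving out C365 for the spread between rats was chosen after seeing the data. The exact test on the first principal component stayed over its threshold in each alternative run. No paired analysis was possible because the labels give each array a number of its own, shared by no other group. The intervals of single genes rest on 4 arrays a group and on a spread pooled over all 16 arrays, not on the 3 h arrays alone. Dim probe sets carry no separate measure of background here.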

Other observations

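Among all tested probe sets the lowest difference belonged to Ldha, encoding a subunit of lactate dehydrogenase, which was picked out by its values. Its probe set read 11.26, 10.44, 10.53 and 11.19 in the water arrays and 11.22, 5.43, 11.01 and 10.99 in the saccharin arrays, so that saccharin array C368 stood more than 5 below the other 7. The difference of -1.19 (standard error 1.38) had a 95% interval from -4.10 to 1.72, and without C368 it turned to 0.22.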
